A study of Mus musculus with 48 samples.

Results

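Nucleolar ribosome biogenesis genes were followed in stromal cells of mouse lymph nodes (LNs) with and without B cell lymphoma. The set holds 39 genes, chosen by symbol because their proteins build the ribosome in the nucleolus, of 13057 genes tested in all. CD45- and Ter119-negative cells were sorted by gp38 and CD31 and read on Illumina bead arrays. Cells with gp38 alone are fibroblastic reticular cells (FRCs), those with CD31 alone are endothelial cells of blood vessels (BECs), those with both are endothelial cells of lymphatic vessels (LECs), and those with neither are called double-negative (DN) cells. Tumor groups came from mice injected i.v. with 200000 to 400000 Eμ-Myc lymphoma B cells, at an average load of 4% to 10% of lymphocytes, and naive groups came from wild-type controls without injected cells. The paper used as a source here, which credits these arrays to an earlier study, describes young adult mice of both sexes on a C57BL/6N background. The day of sorting is not given for these arrays in the sources used here. Eμ-Myc cells carry Myc under an immunoglobulin heavy chain enhancer, so the transgene belongs to the injected B cells and not to the stroma. Each of the 8 groups held 3 biological replicates of 2 array strips each, and each array received 80 ng of RNA pooled from 4 to 6 sorts. The labels do not say whether replicates came from separate animals, so p-values measure the spread between these pools.

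Ribosomes are made in the nucleolus, where RNA polymerase I transcribes a long precursor rRNA. Small nucleolar ribonucleoproteins (snoRNPs) guide the chemical modification of this precursor, the small subunit processome cuts and folds the part that becomes the 40S subunit, and a separate row of assembly factors and helicases matures the 60S subunit. Many of these genes are textbook targets of the transcription factor MYC, and their mRNAs are abundant in growing and dividing cells.

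A probe naming a single gene was present for 37 of the 39 members, and Fbl and Ddx18 were not analysed here. The brightest probe represented each gene, and all values are log2 intensities. The probes of 5 members, namely Dkc1, the pseudouridine synthase, Nop16, Wdr12, Ddx56 and Utp20, lay between 4.47 and 5.67 in every replicate, with no group mean above the background level of 5.63. These 5 were not tested. The 32 tested members included 29 that were above the background level in all 24 replicates. Nolc1, Rrs1 and Ddx10 were not, and Rrs1 reached the level in 0 of the 6 DN replicates. Rrs1 passed the filter only through tumor FRCs, with a mean of 5.85 there and no other group mean above 5.55. Its FRC change is therefore favoured by the filter, and it is included in the counts below (FRCs, limma, unadjusted p = 0.034).

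The members' median stood above every naive value in all 3 tumor replicates of each cell type. The median over the 32 members was 10.91, 11.05 and 10.88 in tumor FRCs, against 9.88, 9.79 and 10.47 in naive FRCs. It was 10.90, 11.04 and 10.61 in tumor BECs, against 10.18, 10.00 and 10.29 in naive BECs. In LECs it was 10.38, 10.42 and 10.27 with tumor, against 10.11, 10.00 and 10.21 in naive replicates. No tumor replicate overlapped a naive one in these 3 cell types, although LEC values were separated by a narrow gap. Tumor DN cells gave 11.24, 10.99 and 10.57, against 10.27, 10.49 and 10.07 in naive DN cells. The groups were apart there too, with the third tumor replicate close to the highest naive one. Each cell type was hybridised on a slide of its own, so levels were not compared between cell types, and on every slide the tumor arrays lay at the same places, so that place and tumor state cannot be told apart.

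**Figure D1:**
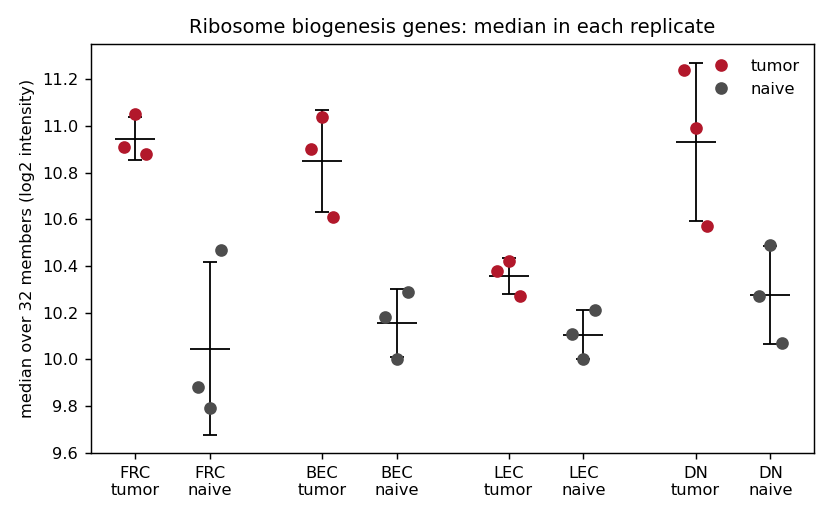
Median log2 intensity of the 32 tested members in each replicate (points), with the group mean and SD (bars, n = 3), for tumor (red) and naive (gray) FRCs, BECs, LECs and DN cells. The tumor points lie above the naive points in each cell type, closest together in LECs, where they are 10.27 to 10.42 against 10.00 to 10.21.

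In FRCs 13 of 32 members were higher in tumor and 0 lower (limma, Benjamini-Hochberg adjusted p under 0.05), against 6.43% of all genes called higher and 4.14% called lower there. In BECs 5 were higher and 0 lower, against 3.61% of all genes called higher and 1.49% lower, and in DN cells 6 were higher and 0 lower, against 4.80% and 2.63%. In LECs 0 members were called in either direction, against 0.797% of all genes called higher and 0.138% lower. At an unadjusted p under 0.05, limma gave 20 members in FRCs (25.6% of all genes), 19 in BECs (20.1%), 21 in DN cells (23.3%) and 0 in LECs (8.85%). The methods' t-test without adjustment gave 15 members higher in FRCs, 14 in BECs, 5 in DN cells and 5 in LECs, where 15.6%, 8.74%, 4.77% and 7.10% of all genes were higher. Altogether 15 members were called in at least 1 cell type and 17 in none, and the matching share of all genes was not counted.

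**Figure D2:**
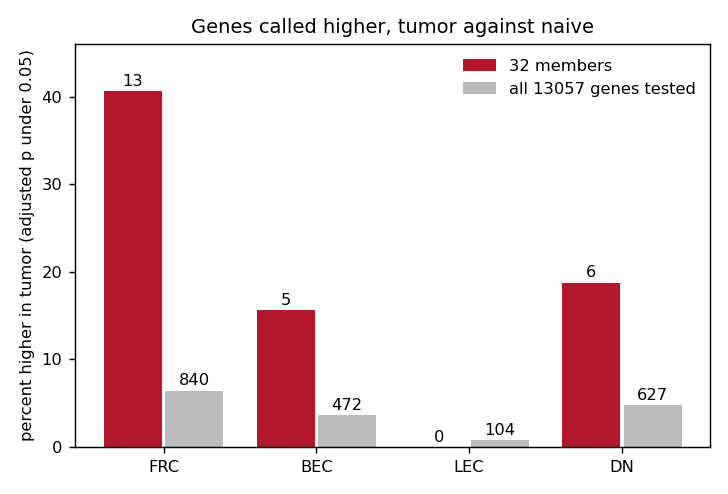
Percent of the 32 members (red) and of all 13057 genes tested (gray) that were higher in tumor at an adjusted p under 0.05 in each cell type, with the number of genes above each bar. The bars read 13 and 840 in FRCs, 5 and 472 in BECs, 0 and 104 in LECs, and 6 and 627 in DN cells.

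The median tumor minus naive change was 0.69 in FRCs, with members between -0.09 and 1.35, against -0.03 over all genes. It was 0.63 in BECs (-0.12 to 1.41), against -0.03 over all genes, and 0.60 in DN cells (-0.14 to 1.12), against -0.07. In LECs it was 0.20 (-0.23 to 0.63), against 0.00 over all genes. Members with a change above 0 numbered 31 in FRCs, 31 in BECs, 28 in LECs and 30 in DN cells, where 47.5%, 46.2%, 49.7% and 42.7% of all genes were above 0. In FRCs 19 members had every tumor replicate above every naive one (19.6% of all genes), in BECs 20 (13.0%), in LECs 9 (11.3%) and in DN cells 10 (8.0%). Each array received the same amount of RNA and strips were brought to a common distribution, so a change is relative to the other transcripts, and in bulk samples fewer cells of a type and less RNA per cell cannot be told apart.

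**Figure D3:**
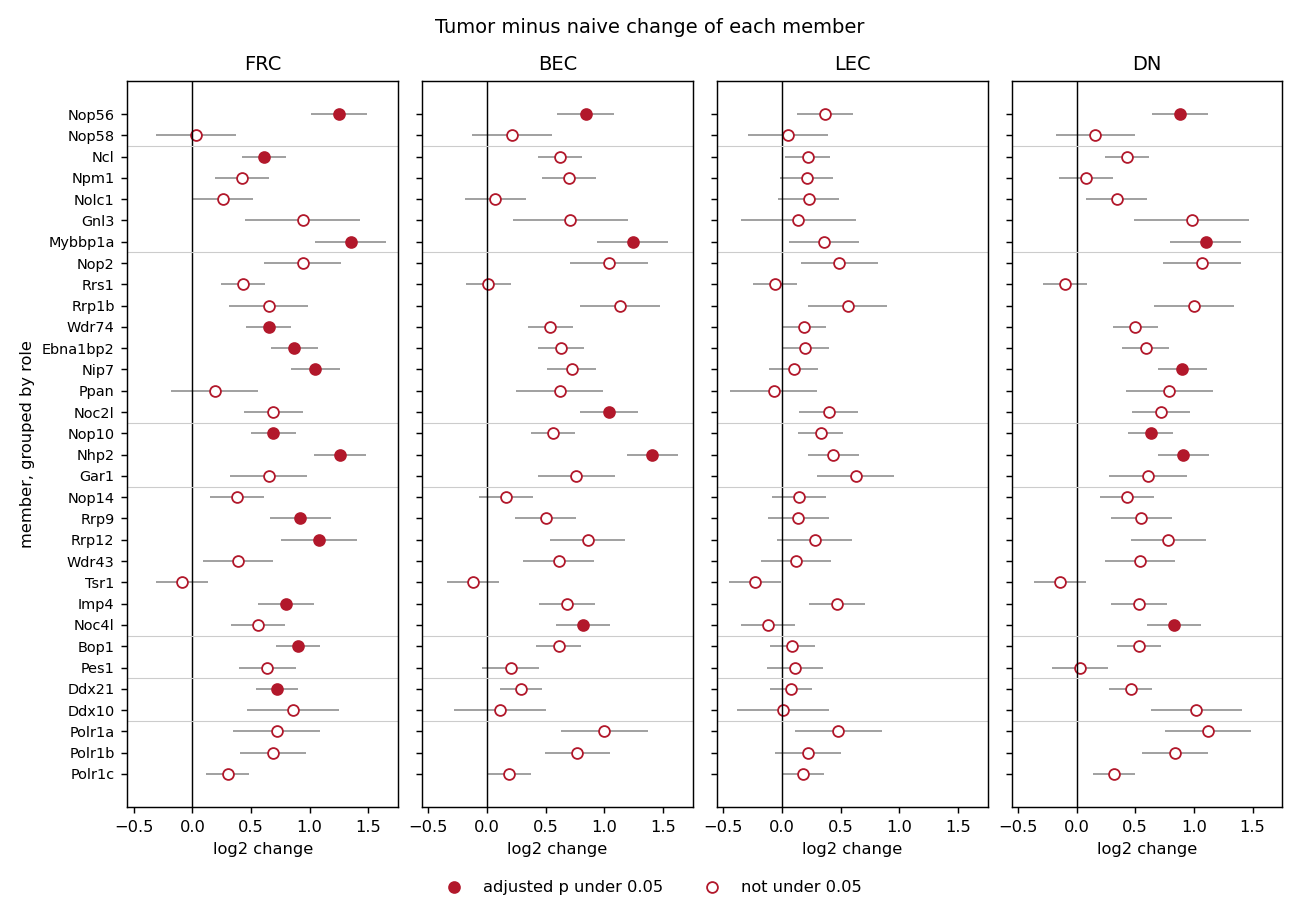
Tumor minus naive log2 change of each of the 32 tested members, grouped by role, with the standard error of the limma fit (bars), in FRCs, BECs, LECs and DN cells. Filled points have an adjusted p under 0.05, which holds for 13, 5, 0 and 6 members in these 4 panels.

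Nhp2, Nop56 and Mybbp1a were the 3 members called in FRCs, BECs and DN cells alike. The 100 bases before the start used in the RefSeq promoter table are shown because these members were called in the same cell types. They are from build GRCm38.p6, and for Nop56 that start lies 45 bases inside the annotated span of the gene. Capitals mark matches to CACGTG or to CACGCG or to CCGGAAG on either strand. CACGTG is the canonical E-box bound by MYC and its partner MAX, CACGCG is a variant of it, and CCGGAAG is the core bound by ETS factors.
Nhp2, chr11:51619673-51619772, plus strand: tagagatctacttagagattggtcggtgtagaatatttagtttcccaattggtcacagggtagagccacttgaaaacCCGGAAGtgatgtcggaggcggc
Nop56, chr2:130274312-130274411, plus strand: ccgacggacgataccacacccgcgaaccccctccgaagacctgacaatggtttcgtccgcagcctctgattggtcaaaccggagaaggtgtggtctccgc
Mybbp1a, chr11:72441227-72441326, plus strand: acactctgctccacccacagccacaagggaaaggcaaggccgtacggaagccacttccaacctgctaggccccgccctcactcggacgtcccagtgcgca
Nhp2 held 1 such match in this stretch, and Nop56 and Mybbp1a held 0.

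Windows of 300 bases, 250 before to 50 after that start, were at hand for 28 of the 32 tested members and for 10475 of the genes tested. CACGTG occurred in 6 of the 28 members (21.4%), against 11.1% of the tested genes with a window. CACGCG occurred in 11 members (39.3%), against 18.0%, and CCGGAAG in 12 (42.9%), against 17.3%. CATGTG was found in 4 members, against 10.8% of the tested genes, and GGGCGG, the core bound by SP1, in 22, against 64.3%. The consensus of NRF1 was found in 0 members, against 1.94%. All 6 motifs were searched on both strands, CACGCG and CCGGAAG matches can lie in the same window, and a match is a description of letters and not a binding site. The 6 canonical E-boxes are shown with their surroundings, in capitals, because they are the sequence most often tied to this gene class.
Imp4, chr1:34439696-34439725: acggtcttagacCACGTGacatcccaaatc
Nop2, chr6:125131811-125131840: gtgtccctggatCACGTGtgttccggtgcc
Pes1, chr11:3963965-3963994: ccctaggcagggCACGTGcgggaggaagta
Wdr43, chr17:71616220-71616249: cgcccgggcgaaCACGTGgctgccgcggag
Tsr1, chr11:74898092-74898121: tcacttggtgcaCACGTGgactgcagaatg
Mybbp1a, chr11:72441347-72441376: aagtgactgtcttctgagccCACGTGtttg
All 6 genes lie on the plus strand. The motif began 121 bases before the start of Imp4 and 60 before that of Nop2, and at base 3 of Pes1, 18 of Wdr43, 25 of Tsr1 and 41 of Mybbp1a, counted from the table's start, which for Wdr43 lies 37 bases inside the annotated span of the gene. Of these 6 genes, Imp4 and Mybbp1a were called in FRCs, whereas Nop2, Pes1, Wdr43 and Tsr1 were not called in any cell type.

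Among the proteins of the modification machinery, the box H/ACA snoRNP core, which guides pseudouridylation, was led by Nhp2, its RNA-binding subunit. Nhp2 measured 12.21, 12.49 and 11.83 in tumor FRCs, against 10.87, 10.88 and 11.01 in naive FRCs. It was at 12.37, 12.60 and 11.80 in tumor BECs, against 10.88, 10.73 and 10.93 in naive BECs. Every tumor replicate stood well above every naive one in both cell types. Tumor DN cells had 13.08, 12.40 and 12.12, against 11.75, 11.62 and 11.50 in naive DN cells, and tumor LECs had 11.26, 11.57 and 11.49, against 10.86, 11.01 and 11.14 in naive LECs. The groups did not overlap in DN cells or LECs either, with the smallest gap in LECs. Changes were 1.26 ± 0.22 in FRCs (SE, 2.39-fold, adjusted p = 0.0015), 1.41 ± 0.22 in BECs (2.65-fold, adjusted p = 8.6e-04) and 0.91 ± 0.22 in DN cells (1.88-fold, adjusted p = 0.018). The LEC change of 0.44 ± 0.22 did not pass (adjusted p = 0.62). A second, dimmer Nhp2 probe gave changes of 1.21, 1.27 and 0.75 in FRCs, BECs and DN cells and 0.18 in LECs.

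The complex held 2 more tested members. Nop10, its smallest subunit, rose by 0.69 ± 0.19 in FRCs (adjusted p = 0.024) and by 0.63 ± 0.19 in DN cells (adjusted p = 0.048). In LECs Nop10 was at 11.77, 12.06 and 11.93 with tumor, against 11.63, 11.32 and 11.80 in naive replicates. The groups overlapped there through 1 tumor replicate. Gar1, which helps release the modified rRNA, had 12.50, 13.31 and 12.78 in tumor LECs, against 12.16, 12.18 and 12.36 in naive LECs, without overlap. Its changes of 0.65, 0.76, 0.63 and 0.61 in FRCs, BECs, LECs and DN cells each had an SE of 0.33 and did not pass the test (adjusted p 0.20 to 0.63). A second, dimmer Gar1 probe read 0.17, 0.24, 0.07 and 0.87 in these cell types.

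In the box C/D snoRNP, which guides ribose methylation, the tested members were the paired scaffold proteins Nop56 and Nop58, whose changes were not tested against each other. Nop56 was at 10.91, 11.22 and 10.90 in tumor FRCs, against 9.51, 9.56 and 10.20 in naive FRCs. It was at 11.03, 11.12 and 10.83 in tumor BECs, against 10.10, 9.92 and 10.43 in naive BECs. The groups were separate in both cell types. In DN cells, with 11.26, 10.74 and 10.34 in tumor replicates against 9.69, 10.37 and 9.63 in naive ones, the third tumor replicate fell just below a naive one. The changes were 1.25 ± 0.24 in FRCs (adjusted p = 0.0024), 0.84 ± 0.24 in BECs (adjusted p = 0.043) and 0.88 ± 0.24 in DN cells (adjusted p = 0.027), with 0.37 ± 0.24 in LECs (adjusted p = 0.76). Nop58 was at 12.88, 13.17 and 13.22 in tumor FRCs, against 13.01, 12.96 and 13.22 in naive FRCs. These values overlapped, and the Nop58 changes were 0.03, 0.21, 0.05 and 0.16 in FRCs, BECs, LECs and DN cells (SE 0.34 each).

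RNA polymerase I subunits were not called in any cell type, although all 3 had changes above 0 in all 4. Polr1b, the second largest subunit, was at 9.0, 9.48 and 9.83 in tumor FRCs, against 8.48, 8.67 and 9.11 in naive FRCs, and at 9.63, 10.12 and 8.94 in tumor BECs, against 8.75, 8.65 and 8.97 in naive BECs. One tumor replicate overlapped the naive range in each of these 2 cell types. In tumor DN cells it was at 9.84, 9.16 and 8.96, against 8.23, 8.50 and 8.70 in naive DN cells, without overlap. Tumor LECs had 8.99, 9.31 and 9.36, against 9.04, 8.94 and 9.05 in naive LECs. Polr1b changes were 0.69, 0.77, 0.22 and 0.84 in FRCs, BECs, LECs and DN cells (SE 0.28, adjusted p 0.12, 0.11, 0.97 and 0.067). Polr1a, the largest catalytic subunit, changed by 0.72, 1.00, 0.48 and 1.12 (SE 0.37, adjusted p 0.071 to 0.85), but a dimmer Polr1a probe read -0.16 in FRCs. Polr1c, shared with RNA polymerase III, showed 0.30, 0.19, 0.18 and 0.32.

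Among the nucleolar scaffolds and regulators, Mybbp1a, a MYB-binding nucleolar protein that restrains rRNA synthesis, gave 8.91, 8.94 and 8.59 in tumor FRCs, against 7.24, 7.54 and 7.62 in naive FRCs. It gave 9.0, 8.94 and 8.46 in tumor BECs, against 7.28, 7.49 and 7.89 in naive BECs. The third tumor replicate was the lowest in each. In tumor DN cells it was at 9.03, 8.72 and 7.59, against 7.01, 7.49 and 7.52 in naive DN cells, so that the third tumor replicate barely cleared the naive range. The changes were 1.35 ± 0.30 in FRCs (2.55-fold, adjusted p = 0.0064), 1.24 ± 0.30 in BECs (adjusted p = 0.019) and 1.10 ± 0.30 in DN cells (adjusted p = 0.028), and 0.36 ± 0.30 in LECs (adjusted p = 0.87). Of the 3 other Mybbp1a probes kept, 1 read 1.23, 0.84, 0.46 and 0.98 in FRCs, BECs, LECs and DN cells, and the dimmest read 0.58, 0.54, -0.22 and 0.77. The third, at a mean of 6.69, read 2.36, 0.05, -0.29 and -0.35.

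The abundant nucleolar proteins Ncl and Npm1 had smaller changes than Mybbp1a in each cell type, a difference that was not tested. Ncl, which binds nascent rRNA, was at 11.22, 11.25 and 11.08 in tumor FRCs, against 10.49, 10.53 and 10.70 in naive FRCs, and at 11.21, 11.50 and 10.87 in tumor BECs, against 10.51, 10.70 and 10.51 in naive BECs. The groups were separate in both. Tumor LECs had 10.94, 11.28 and 11.08, against 10.76, 10.88 and 11.00 in naive LECs, and tumor DN cells 11.80, 11.41 and 10.93, against 11.01, 11.08 and 10.76 in naive DN cells, both with overlap. Ncl passed in FRCs (0.61 ± 0.19, adjusted p = 0.043) and not in BECs (0.62 ± 0.19, adjusted p = 0.061), LECs (0.22) or DN cells (0.43). Npm1, a histone and ribosomal protein chaperone, was at 14.39, 14.72 and 14.18 in tumor FRCs, against 14.02, 13.95 and 14.08 in naive FRCs. It was at 14.70, 14.88 and 14.22 in tumor BECs, against 14.07, 13.77 and 13.86 in naive BECs, also apart. In DN cells Npm1 was at 14.47, 14.77 and 13.63 with tumor, against 14.18, 14.31 and 14.14 in naive replicates, with 1 tumor replicate below all naive ones, and in LECs at 14.08, 14.51 and 14.13, against 13.96, 14.03 and 14.10, with overlap. No Npm1 change passed, at 0.42, 0.70, 0.21 and 0.08 (SE 0.23, adjusted p 0.27, 0.083, 0.95 and 0.88). Gnl3, also called nucleostemin, had changes of 0.94, 0.71, 0.14 and 0.98 with an SE of 0.49, and none passed.

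Of the 7 tested factors of the small subunit processome and 40S maturation, 3 rose in FRCs, namely Rrp12 by 1.08 ± 0.32 (2.11-fold), the U3 snoRNP protein Rrp9 by 0.92 ± 0.26 and Imp4 by 0.80 ± 0.24. Imp4 was at 11.78, 12.25 and 12.15 in tumor LECs, against 11.64, 11.48 and 11.66 in naive LECs, without overlap (0.47 ± 0.24, adjusted p = 0.62). Noc4l, a partner of Nop14 in 40S export, was at 9.91, 10.35 and 9.37 in tumor BECs, against 9.01, 9.26 and 8.90 in naive BECs, with a change of 0.82 ± 0.23 (adjusted p = 0.042). It was at 11.14, 10.88 and 10.43 in tumor DN cells, against 10.41, 9.62 and 9.91 in naive DN cells, narrowly apart and with a change of 0.83 ± 0.23 (adjusted p = 0.031). In tumor LECs Noc4l was at 9.36, 9.50 and 9.19, against 9.38, 9.67 and 9.38 in naive LECs, overlapping and with a change of -0.12 ± 0.23. A second Noc4l probe, at a mean of 9.40, read 0.71, 0.70, 0.12 and 0.65 in FRCs, BECs, LECs and DN cells. The sign in LECs thus depends on the probe. Nop14 itself changed by 0.38, 0.16, 0.15 and 0.43 in FRCs, BECs, LECs and DN cells, and none of these passed.

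Tsr1, a late 40S assembly factor, was the 1 member below 0 in all 4 cell types by its brightest probe. It was at 7.52, 7.43 and 7.50 in tumor FRCs, against 7.52, 7.83 and 7.37 in naive FRCs, and at 6.90, 7.00 and 7.27 in tumor BECs, against 7.15, 7.20 and 7.19 in naive BECs. Tumor LECs had 7.04, 7.18 and 7.83, against 7.81, 7.76 and 7.18 in naive LECs, and tumor DN cells 7.00, 7.32 and 7.72, against 7.35, 7.31 and 7.78 in naive DN cells. All 4 pairs of groups overlapped. The changes were -0.09, -0.12, -0.23 and -0.14 (SE 0.22), and none passed. Its second probe read the other way, at 0.76, 0.78, 0.17 and 0.45, so the direction of Tsr1 depends on the probe.

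In the PeBoW complex, which processes the 60S precursor, Bop1 was at 10.55, 10.60 and 10.37 in tumor FRCs, against 9.61, 9.52 and 9.70 in naive FRCs. The groups lay far apart and the change was 0.90 ± 0.19 (1.86-fold, adjusted p = 0.0052). Bop1 had 0.61, 0.09 and 0.53 in BECs, LECs and DN cells, and its partner Pes1 had 0.64, 0.20, 0.11 and 0.03 in FRCs, BECs, LECs and DN cells, none of which passed.

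Nip7 had the smallest adjusted p of the 8 other tested 60S assembly factors in FRCs and DN cells. It was at 11.14, 11.35 and 11.25 in tumor FRCs, against 9.88, 10.22 and 10.49 in naive FRCs, and at 11.52, 11.13 and 10.82 in tumor DN cells, against 9.97, 10.78 and 10.01 in naive DN cells. The groups were separate in both, in DN cells by a small margin. It rose by 1.05 ± 0.21 in FRCs (2.07-fold, adjusted p = 0.0034) and by 0.90 ± 0.21 in DN cells (adjusted p = 0.012), and just missed the threshold in BECs (0.72 ± 0.21, adjusted p = 0.051). In LECs it was at 10.26, 10.09 and 10.38 with tumor, against 10.10, 10.03 and 10.28 in naive replicates. Noc2l was at 11.87, 12.14 and 11.01 in tumor BECs, against 10.52, 10.80 and 10.58 in naive BECs, separate and higher by 1.04 ± 0.25 (adjusted p = 0.020). Ebna1bp2 rose by 0.87 ± 0.20 and Wdr74 by 0.65 ± 0.19 in FRCs. Nop2, the rRNA cytosine methyltransferase, changed by 0.94, 1.04, 0.49 and 1.07 and missed the threshold in FRCs, BECs and DN cells (adjusted p 0.072, 0.073 and 0.053), with its other probes also above 0 except 1 at -0.03 in LECs. Rrp1b changed by 0.65, 1.13, 0.56 and 1.00 in FRCs, BECs, LECs and DN cells (SE 0.34, adjusted p 0.24, 0.059, 0.72 and 0.078), the largest of these 8 factors in BECs and not past the threshold in any cell type, and its 3 other probes were above 0 in all 4 cell types. Rrs1, which recruits the 5S particle, was at 5.40, 5.45 and 5.50 in tumor DN cells, against 5.59, 5.53 and 5.53 in naive DN cells, all below the background level, so its change of -0.10 lies between values at background.

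Of the nucleolar helicases, Ddx21, which couples rRNA transcription and processing, rose in FRCs by 0.72 ± 0.18 (1.65-fold, adjusted p = 0.017). Its changes in BECs, LECs and DN cells were 0.29, 0.08 and 0.46, with adjusted p of 0.41, 1.0 and 0.14. Ddx10 had 0.86, 0.11, 0.01 and 1.02 in FRCs, BECs, LECs and DN cells with an SE of 0.39, and none passed.

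**Figure D4:**
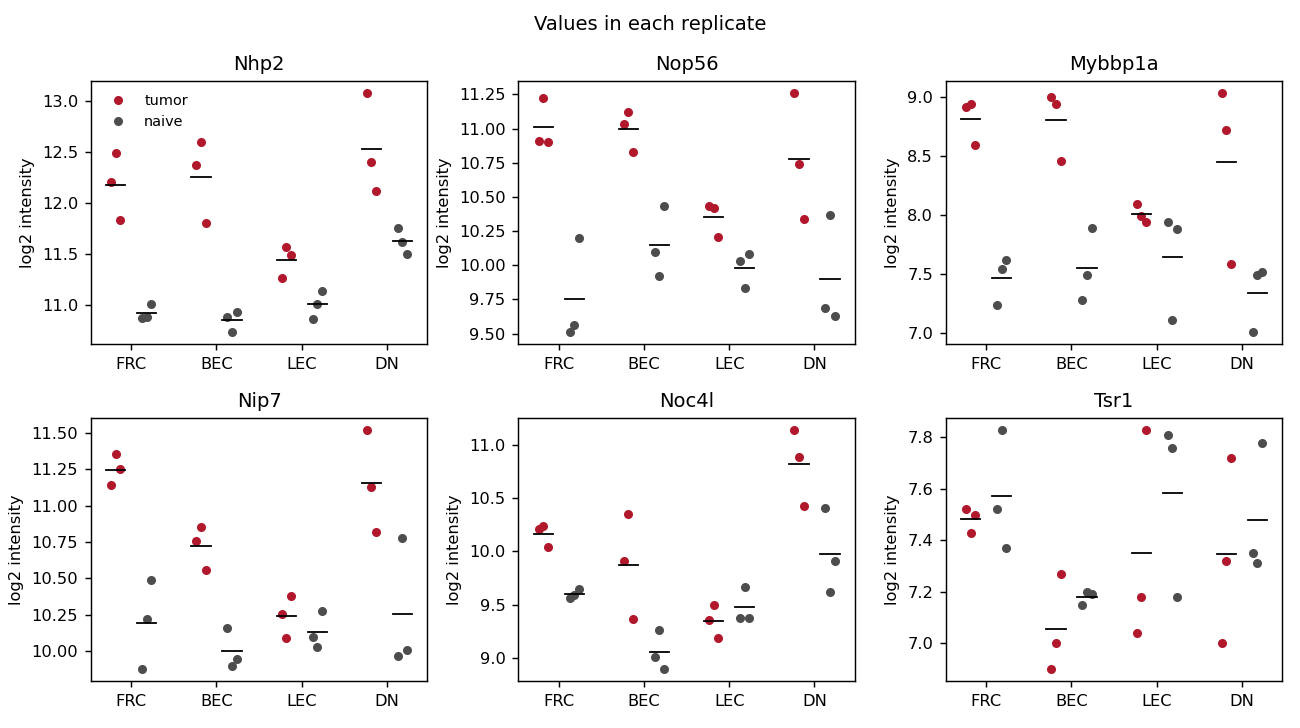
Log2 intensity in each replicate (points) and group mean (line) for tumor (red) and naive (gray) FRCs, BECs, LECs and DN cells. Nhp2, Nop56, Mybbp1a and Nip7 are separated in FRCs and BECs and close together in LECs, and Tsr1 overlaps throughout. The vertical axes differ between genes and do not start at 0.

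Whether the change itself differed between cell types was tested in the same model. The F-test over the 4 cell types called 0 of 32 members, against 1.32% of all genes. At an unadjusted p under 0.05 it gave 3 members, a share below the 13.9% of all genes. None of the 6 pairwise differences called a member (0 of 32 by limma). Of all genes, 0.934% were called in FRCs minus BECs, 0.613% in FRCs minus LECs, 1.26% in FRCs minus DN cells, 0.00766% in BECs minus LECs, 0.437% in BECs minus DN cells and 0.260% in LECs minus DN cells. Among the members, limma's unadjusted p was under 0.05 for 9 in FRCs minus LECs (11.2% of all genes), 3 in BECs minus LECs (5.40%) and 2 in LECs minus DN cells (10.3%). It was so for 0 members in FRCs minus BECs (11.2%), FRCs minus DN cells (13.5%) and BECs minus DN cells (9.44%). The median difference was 0.46 for FRCs minus LECs and 0.45 for BECs minus LECs, and -0.40 for LECs minus DN cells. The smallest adjusted p belonged to Nip7 in FRCs minus LECs, with a difference of 0.95 ± 0.30 (95% interval 0.33 to 1.57, adjusted p = 0.17), followed by Bop1 at 0.80 ± 0.27 (0.24 to 1.37, adjusted p = 0.21). The weaker values in LECs were therefore not shown to differ from those of the other cell types at this number of arrays. In LECs the upper 95% bounds of the members' changes ran from 0.23 to 1.33. Averaged over the 4 cell types, 22 members were higher and 0 lower, against 12.8% of all genes called higher and 11.0% lower. The largest mean changes were those of Mybbp1a (1.01 ± 0.15), Nhp2 (1.00 ± 0.11), Nop2 (0.89 ± 0.16) and Nop56 (0.84 ± 0.12).

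Calls depended on single replicates, and so did the number of all genes called higher, given in brackets. In FRCs the count was 7, 6 and 8 without tumor replicate 1, 2 or 3 (455, 343 and 838, against 840 with all replicates). It was 5, 7 and 12 without naive replicate 1, 2 or 3 (398, 463 and 727). Nop56, Nhp2, Bop1, Nip7 and Mybbp1a passed in all 6 of these fits, whereas Ncl and Imp4 passed in 0. In BECs the count was 1, 1 and 17 on leaving out tumor replicate 1, 2 or 3 (198, 152 and 884, against 472). It was 1, 4 and 2 without naive replicate 1, 2 or 3 (295, 423 and 218). Nhp2 passed in each of these BEC fits. In DN cells the count was 0, 2 and 22 without tumor replicate 1, 2 or 3 (216, 360 and 1243, against 627). It was 2, 8 and 1 without naive replicate 1, 2 or 3 (505, 1011 and 354). In LECs it was 0 in every such fit (10 to 138, against 104). All replicates share 1 estimate of the spread, so calls in 1 cell type also moved with replicates of another. The BEC count was 13 without tumor DN replicate 3 (682), 10 without tumor DN replicate 1 (556) and 9 without naive DN replicate 2 (652). It was 3 (414 to 454) without each of tumor FRC replicate 1, naive FRC replicate 2, tumor LEC replicate 1, naive LEC replicates 1 and 3, and tumor DN replicate 2. The DN count was 10 without tumor BEC replicate 3 (706).

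B cell markers were called higher in BECs and DN cells only. Of 13 tested markers 8 were higher in tumor DN cells and 2 in tumor BECs, and 0 in FRCs and LECs. The list's median change was 0.50 in FRCs, 1.85 in BECs, 0.17 in LECs and 3.30 in DN cells. Relative to the naive mean, the list's median stood at 4.96, 3.99 and 0.49 in tumor DN replicates 1, 2 and 3, where the members' median stood at 1.09, 0.71 and 0.19. In tumor BECs it stood at 2.44, 3.55 and 0.11, where the members stood at 0.69, 0.93 and 0.29. Both lists had the same order of replicates in these 2 groups, and also in tumor LECs, but not in tumor FRCs. In tumor FRCs the B cell list stood at 0.34, 0.33 and 0.95 and the members at 0.61, 0.78 and 0.69, and in tumor LECs at -0.08, 0.69 and 0.11 and 0.10, 0.36 and 0.21. Naive replicates lay between -0.33 and 0.32 for the B cell list. The list's median level ran from 6.89 to 10.71 in tumor DN cells, against 5.65 to 6.02 in naive DN cells, with 11 to 12 of 13 markers above background, against 7 to 8. Vpreb3, one of these markers, was at 13.03, 12.55 and 9.39 in tumor DN cells, against 5.24, 5.13 and 5.89 in naive DN cells. It was at 11.20, 12.12 and 7.64 in tumor BECs, against 5.78, 5.80 and 5.61 in naive BECs.

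Leaving out the 4 tumor replicates with the highest B cell marker medians (BEC and DN replicates 1 and 2) left 1 tumor replicate in each of these cell types. Calls are not given for this setting, because 1 replicate has no spread of its own. Only tumor replicate 3 then stood for these cell types, so the members' median change of 0.29 in BECs and 0.19 in DN cells is that of this replicate given above, with 26 and 21 of 32 members above 0. The Nhp2 change was 0.95 in BECs and 0.49 in DN cells. FRCs kept all replicates, so their median of 0.69 could not change, and this setting does not bear on other cells among them. This setting was chosen after the data had been seen. Leukocyte markers were higher for 0, 1, 0 and 5 of 10 genes in FRCs, BECs, LECs and DN cells, with median changes of 1.36, 1.36, 0.59 and 2.19, and 0, 0, 0 and 3 of 7 T cell markers passed. The leukocyte median relative to the naive mean was 0.62, 0.67 and 1.71 in tumor FRCs, against -0.15 to 0.12 in naive FRCs. Of 13 myeloid markers, 2 were higher in FRCs (Csf1r by 0.94 ± 0.24 and Cd14 by 1.80 ± 0.47) and 0 in BECs, LECs and DN cells, with median changes of 0.92, 0.76, -0.15 and 1.03 in FRCs, BECs, LECs and DN cells. Relative to the naive mean, the myeloid median was 0.48, 0.80 and 0.94 in tumor FRCs, against 0.08, 0.03 and 0.08 in naive FRCs. It was 0.48, 2.19 and -0.18 in tumor BECs, against -0.14, 0.29 and -0.11 in naive BECs, and 2.40, 1.28 and -0.40 in tumor DN cells, against -0.55, 0.95 and -0.33 in naive DN cells. In tumor BECs and DN cells the replicates thus stood in the same order as by the members' median. Mzb1, of the plasma cell list, was higher by 2.83 in FRCs, 4.42 in BECs and 6.80 in DN cells (SE 0.78), read 3.14 in LECs (adjusted p = 0.064), and was the 1 marker called of 6 plasma cell markers tested. The part of these cells in the members' change was not tested. Pecam1, which encodes the CD31 that the DN gate excludes, was at 10.60, 10.57 and 11.11 in tumor DN cells, against 7.61, 9.15 and 5.74 in naive DN cells, and 8 of 15 BEC markers were higher there. Pecam1 was at least 14.18 in all BEC replicates, the lymphatic regulator Prox1 at least 12.61 in all LEC replicates and Pdpn, which encodes gp38, at least 14.31 in all FRC replicates.

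**Figure D5:**
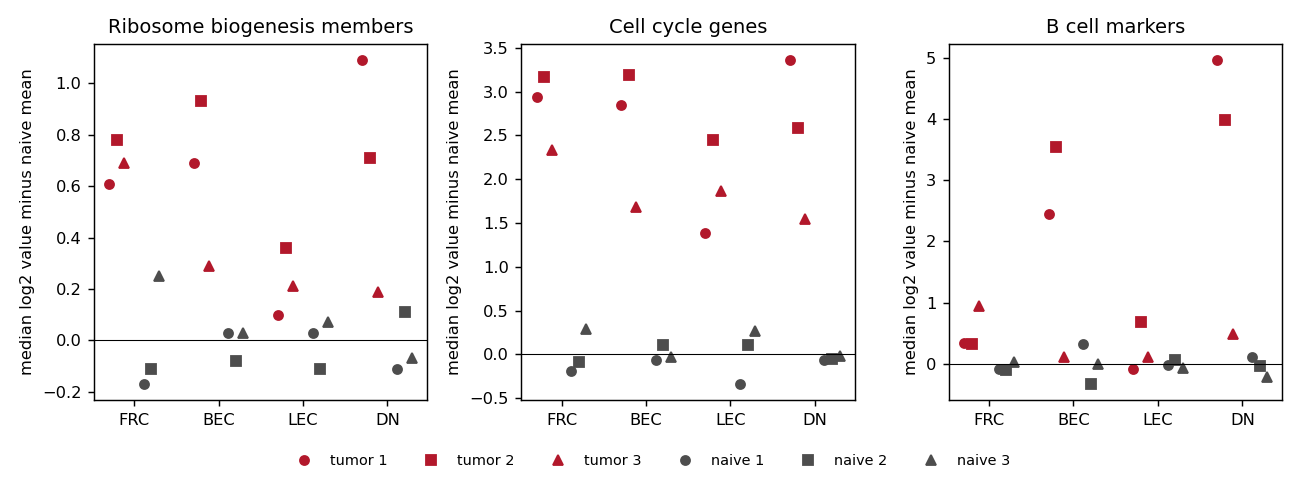
Median log2 value relative to the mean of the naive replicates for the 32 members, 26 cell cycle genes and 13 B cell markers, with each replicate marked by shape (circle 1, square 2, triangle 3), tumor in red and naive in gray. In tumor BECs and DN cells the third replicate is lowest in all 3 panels, and vertical scales differ.

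Of all genes, 6.43%, 3.61%, 0.797% and 4.80% were called higher in FRCs, BECs, LECs and DN cells. Of 35 other small subunit and 40S factors, 9, 5, 0 and 3 were higher in FRCs, BECs, LECs and DN cells and 0 lower, with median changes of 0.54, 0.35, 0.15 and 0.38. Heatr1, a processome scaffold, rose in FRCs (0.74 ± 0.22), BECs (0.87 ± 0.22) and DN cells (0.84 ± 0.22). Of 40 other 60S factors, 8, 5, 0 and 7 were higher and 0 lower, with medians of 0.42, 0.40, 0.15 and 0.41, and Mrto4, which acts in ribosomal stalk assembly, rose by 1.00 in FRCs, 1.05 in BECs and 0.96 in DN cells (SE 0.26 each). Of 10 further polymerase I factors, 2, 1, 0 and 2 were higher, led by Polr1e at 1.50 ± 0.26 in FRCs (adjusted p = 0.0010). Tcof1, the treacle protein, rose by 1.56 ± 0.27 in DN cells. Of 10 snoRNP assembly factors, 3, 1, 0 and 2 were higher, with the ATPase Ruvbl2 among them in FRCs, BECs and DN cells (1.16, 0.91 and 1.22, SE 0.23). Of 12 tested nuclear exosome genes, 5, 3, 0 and 3 were higher and 1 was lower in FRCs (the helicase Mtrex, -0.76), with Exosc2 higher by 1.00, 0.75 and 0.80 in FRCs, BECs and DN cells and at 0.77 ± 0.22 in LECs (adjusted p = 0.12).

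Myc itself was called in none of the 4 cell types. Its probe was at 7.84, 8.05 and 7.51 in tumor FRCs, against 8.18, 8.16 and 7.69 in naive FRCs, and at 7.11, 6.93 and 6.68 in tumor BECs, against 6.67, 6.86 and 6.66 in naive BECs. Tumor LECs had 6.87, 6.91 and 6.90, against 7.68, 7.42 and 7.50 in naive LECs, and tumor DN cells 8.0, 7.49 and 6.74, against 7.02, 7.92 and 7.61 in naive DN cells. The groups overlapped in FRCs, BECs and DN cells, and in LECs tumor replicates were below naive ones. Changes were -0.21, 0.18, -0.64 and -0.11 (SE 0.26), and none passed (adjusted p 0.67, 0.78, 0.41 and 0.85). Among the MAX dimerisation proteins that oppose MYC, Mxd1 was lower in FRCs by -1.28 ± 0.25, in BECs by -0.88 ± 0.25 and in DN cells by -1.21 ± 0.25, and Mxd4 was lower in FRCs (-0.74 ± 0.22). Mxd3, known from dividing cells, was higher by 1.95 in FRCs, 1.37 in BECs and 1.38 in LECs (SE 0.25 each). Of 19 MYC targets outside the nucleolus, 4, 9, 0 and 4 were higher in FRCs, BECs, LECs and DN cells, with the kinase gene Cdk4 among them in FRCs, BECs and DN cells (0.69, 0.80 and 0.85, SE 0.17).

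Cell cycle genes rose in all 4 cell types, LECs included. Of 26 tested, 25 were higher in FRCs, 23 in BECs, 15 in LECs and 23 in DN cells, with median changes of 2.94, 2.55, 1.91 and 2.52. Cdk1, the mitotic kinase, was at 10.01, 11.20 and 10.32 in tumor LECs, against 6.16, 7.39 and 7.21 in naive LECs, a change of 3.59 ± 0.39 (adjusted p = 1.8e-04). The cell cycle list relative to the naive mean stood at 2.85, 3.19 and 1.68 in tumor BEC replicates and at 3.36, 2.59 and 1.55 in tumor DN replicates, with the third replicate lowest as for the members. Of 18 p53 target genes, 0 were higher in any cell type and 1, Sesn1, was lower in FRCs (-1.06 ± 0.24). Averaged over the 4 cell types, 6 of these 18 were lower and 0 higher, against 11.0% of all genes called lower and 12.8% higher. Housekeeping genes were higher for 4, 2, 0 and 0 of 11 genes in FRCs, BECs, LECs and DN cells, with medians of 0.51, 0.27, 0.07 and 0.37.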

How the data were processed

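RNA of sorted LN stromal cells was read on Illumina bead arrays with 48 strips, 2 for each of 24 replicates. The log2 values deposited by the authors form a table of 45281 probes, and how they were background corrected and normalized is not given in the sources used here. The bead intensity files deposited by the authors hold 863780 to 1044181 beads per strip (median 18 to 22 per code), already with a local background subtracted, and served for 2 alternatives after linking 45156 of 45160 complete probes to bead codes by their values. The number of beads and arrays limits the precision.

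The 48 strips were brought to a common distribution (quantile normalization), and the 2 strips of a replicate were averaged. Background was taken from the mode of all values, 4.99, plus 3 times its robust SD of 0.21, which gave a level of 5.63. Of 34885 probes naming 1 gene, 21170 had at least 1 group mean above it, and the probe with the highest mean was taken per gene (13057 genes). Probes naming no gene (10378) or several (18) were left out. Groups followed the labels. All 24 replicates were fitted with limma 3.58.1 in R 4.3.3 as 8 group means (16 residual and 3.19 prior degrees of freedom), with Benjamini-Hochberg adjustment over all genes. Tumor minus naive changes, their 6 pairwise differences, their mean and an F-test came from this fit. The fit and the probe link were tested on simulated data. The noise simulated for the link was well below the difference between the 2 strips of a replicate. Same-numbered tumor and naive replicates were taken as paired where every pair's deviations correlated above 0.1, which held in LECs (0.20, 0.23 and 0.15) and not in FRCs (0.25, 0.03 and 0.09), BECs (0.04, -0.17 and -0.22) or DN cells (-0.04, -0.19 and -0.02).

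The members, the other gene lists and the tests were chosen with earlier results of these data known. All members may be named. Values in every replicate are given for the 4 members with the smallest adjusted p per cell type, the 2 with the largest change against the members' median there, and Ncl, Npm1 and Polr1b (Fbl and Dkc1, also foreseen, had no probe or none above background). Genes of other lists are named from the 4 smallest adjusted p per list and cell type among those passing, Myc always; Pecam1, Prox1 and Pdpn check the gates. Promoter sequences are those of RefSeq, with Python 3.11.15 and pandas 2.3.3 used for motif searches, scikit-learn 1.9.0 for the probe link and matplotlib 3.10.9 for figures. Alternatives varied the normalization, filter, probe, strips, samples, block, weights, variance prior, test and source, and left out each replicate.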

Additional observations from a re-analysis of the deposited data

Results flagged for a closer look

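Mtrex, a helicase that works with the nuclear exosome and is not one of the 39 genes, had tumor replicates all below the naive ones in FRCs and LECs and all above them in BECs. It was at 9.97, 9.62 and 9.67 in tumor FRCs, against 10.70, 10.47 and 10.38 in naive FRCs, lower by a log2 change of -0.76 ± 0.21 (limma, adjusted p = 0.024). In BECs it was at 9.71, 10.14 and 9.26 with tumor, against 9.16, 9.01 and 9.15 in naive replicates, a change of 0.60 ± 0.21 that did not pass the test (adjusted p = 0.10). The change in FRCs minus that in BECs was -1.36 ± 0.29 (limma, adjusted p = 0.033). In LECs all tumor replicates (10.78, 10.81 and 10.80) also lay below all naive replicates (10.91, 10.83 and 10.83), by -0.06, while the change in BECs minus that in LECs did not pass the test (0.66 ± 0.29, adjusted p = 0.90).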

How the results depend on the processing

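The direction of each of the members' calls was kept under 16 alternative settings and 24 fits that each left out 1 replicate, and 0 members were called lower in any cell type. Counts within 1.5 times the value given above are not repeated. Brackets give all genes called higher under the same setting. In the main fit these were 840, 472, 104 and 627 in FRCs, BECs, LECs and DN cells. In FRCs the 13 calls became 8 with the first strip only (705), 28 with array weights (2529) and 6 with the methods' t-test after adjustment (470). In BECs the 5 calls became 1 with the cell type fitted alone (112), 3 with the replicate block (376) and 21 with array weights (1967). The methods' t-test gave 0 after adjustment (0) and 14 unadjusted (1141), and bead files without background correction gave 8 (533 of 12317 genes). In DN cells the 6 calls became 3 with centred strips (487 of 12813 genes), 3 with the mean of all kept probes (609) and 2 with the first strip only (534). They became 0 with the cell type alone (0), 21 with array weights (1397) and 0 with the methods' t-test after adjustment (0). Where no gene at all was called higher, a count of 0 says nothing of the members. In LECs the 0 calls became 5 only with the methods' t-test unadjusted (927). The replicate block gave 12 in FRCs (648), 4 in DN cells (494) and 0 in LECs (80), where the numbers pair. Array weights, whose estimation stopped before full convergence, called 10 members in the F-test, 2 higher in FRCs minus BECs, 10 in FRCs minus LECs, 1 in FRCs minus DN cells and 2 in BECs minus LECs, and 4 lower in LECs minus DN cells. Counts over all genes under array weights are not given for these contrasts, so these calls cannot be read as a result about the members. In FRCs array weights called 2529 of all 13057 genes higher and 2705 lower. The cause of these shifts was not tested.

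With 1 replicate left out, counts of members higher ran from 5 to 15 in FRCs, 1 to 17 in BECs, 0 to 0 in LECs and 0 to 22 in DN cells. They ran from 20 to 27 for the mean over the 4 cell types. The fits with the lowest and highest counts called 398 and 1023 of all genes higher in FRCs and 216 and 1243 in DN cells. The fit with 17 members in BECs called 884. The F-test and LECs minus DN cells (lower) ran from 0 to 1, with 1 only without naive DN replicate 2. Median changes ran from 0.59 to 0.85 in FRCs, 0.48 to 0.80 in BECs, 0.14 to 0.26 in LECs and 0.41 to 0.90 in DN cells. Leaving out the 4 tumor replicates with the highest B cell marker medians gave median changes of 0.29 in BECs and 0.19 in DN cells, each from 1 tumor replicate. Without the filter on dim probes, 37 members were tested and the mean of the replicate medians was 10.60 in tumor FRCs, 10.56 and 9.97 in tumor and naive BECs and 10.18 and 9.97 in tumor and naive LECs. Among members with several kept probes, 22 further probes were above 0 in 21, 22, 19 and 21 cases in FRCs, BECs, LECs and DN cells. Members at background could not be measured. With 3 replicates per group, a change well above its SE could still miss the threshold, as for Nip7 in BECs (0.72 ± 0.21, limma, adjusted p = 0.051). A member that was not called was thus not shown to be unchanged.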
